A study of Mus musculus with 18 samples.

Results

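The comparison described here is that of iHoxc9 neurons with day 2 progenitors, 3 libraries of each, which make up 6 of the 18 RNA-seq libraries of the study. The members were chosen from their labels alone, and all 20944 genes with a count in any iHox library were tested. The study differentiated mouse embryonic stem cells (ESCs) into spinal motor neurons and interneurons and switched on individual Hox transcription factors on the way. All libraries came from embryoid bodies, cell aggregates grown from Ainv15 ESCs and treated with 1 µM retinoic acid (RA) and 0.5 µM SAG, a smoothened agonist that switches on Hedgehog signaling. Day 2 progenitors (iCre line) were collected on day 2 of RA and SAG, before any induction. iHoxc9 neurons (iFlag.Hoxc9 line) were collected on day 4, after 48 h of 3 µg/ml doxycycline (Dox), which switches on a single Flag-tagged Hoxc9 copy that was placed at the Hprt locus. Control neurons (iFlag.Hoxc6 line without Dox) and iHoxc10 neurons (iFlag.Hoxc10 line, 48 h of Dox) were also collected on day 4, with 3 libraries each, and are used for comparison. Each line is a model of forced expression in a mixed culture, and replicates were independent differentiations.

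The study asks how Hox factors give spinal neurons their position along the body axis. Hox genes encode homeodomain transcription factors whose order along each cluster matches the order of the body levels where they act. In the spinal cord, Hoxc9 is known for its role at thoracic levels, where it represses the Hox genes of limb levels. Day 2 cultures hold dividing neural progenitors, and by day 4 most of them have become postmitotic neurons, so that the comparison joins 2 days of differentiation with the effect of Hoxc9. Day 2 progenitors, control and iHoxc9 libraries each came from a different sequencing run and line, so run, line, Dox and day cannot be told apart against day 2. iHoxc9 and iHoxc10 libraries shared a run. In bulk RNA, fewer cells of a type and less RNA per cell cannot be told apart.

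Total counts were 24498630 to 33168533 per library, and 3 counts corresponded to 0.0904 to 0.122 CPM (counts scaled to the depth of the library), a limit that covers counting error only. Replicates of iHoxc9 were close. Of 13232 genes reaching 1 CPM in the group, 16 to 23 differed more than 2-fold in CPM + 1 between any pair. Counts for the other groups were made in the same way, and the added 1 hides differences of genes with low levels. The third library of day 2 progenitors stood apart, with 1176 and 864 of 13507 genes more than 2-fold from replicates 1 and 2, which differed from each other in 41 genes. Among control libraries, replicates 2 and 3 differed in 669 of 13297 genes. Levels are given as CPM normalized by TMM. Differences are log2 fold changes from edgeR's quasi-likelihood test with their standard error (SE), and a gene was called higher or lower where the adjusted p was under 0.01 and the change exceeded 2 on the log2 scale in that direction.

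The induced gene was checked first. Hoxc9 was at 224, 236 and 213 CPM in iHoxc9 replicates 1 to 3, and at 0.101, 0.133 and 0.0312 CPM in day 2 progenitors. In control libraries it was at 0.0321, 0.0385 and 0.0374 CPM, and in iHoxc10 libraries at 0.0700, 0.0358 and 0.0810 CPM. Hoxc9 was therefore high in every library labeled as induced and near the counting limit in all others, with a log2 fold change of 11.26 (SE 0.25, adjusted p = 3.03e-17) against day 2. The count does not separate transgene reads from those of endogenous Hoxc9 (chr15:102977032-102984444, GRCm38). Hprt, the X-linked housekeeping gene at whose locus the transgene sits, was at 8.02, 8.01 and 8.76 CPM in iHoxc9 and at 6.64, 5.72 and 7.15 CPM in day 2 progenitors, whereas control libraries had 1.25, 2.23 and 1.35 CPM. Hprt therefore did not pass the test in iHoxc9 (0.34, SE 0.17, adjusted p = 0.0902) and fell in control (-2.02, SE 0.19). In iHoxc6 neurons, of the same line and run as control but with Dox, its mean was 12.3 CPM, and in iHoxc8 neurons 32.5 CPM. The part of the transgene at this locus in these levels was not tested.

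From day 2 to iHoxc9, 1675 genes were called higher (8.00% of those tested) and 1589 lower (7.59%). From day 2 to control, 1411 genes were called higher (6.74%) and 1219 lower (5.82%). Both comparisons use the same day 2 libraries, and by the rule of the calls 1126 genes were higher and 935 lower in both. The median change over all genes was 0 in both. Left without day 2 replicate 3, the counts for iHoxc9 were 1699 and 1595.

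Among genes with at least 10 CPM in the higher group and no overlap between the groups, those with the largest rise included Stra6l, Bcl11a, Ecel1, Sim1, Gpr17 and Islr2. Bcl11a, a zinc finger repressor of developing neurons, was at 52.46, 52.5 and 52.46 CPM in iHoxc9, against 0.101, 0.0998 and 0.1249 CPM in day 2 progenitors and 7.16, 5.20 and 3.59 CPM in control. It rose in both neuron groups, by 8.86 (SE 0.29) in iHoxc9 and 5.56 (SE 0.31) in control on the log2 scale, with a difference between them of 3.30 (SE 0.19, adjusted p = 2.71e-11). Islr2, which promotes axon extension, was at 330.3, 373 and 295 CPM in iHoxc9 and at 1.41, 1.96 and 1.28 CPM in day 2 progenitors, with log2 fold changes of 7.74 in iHoxc9 and 7.18 in control. Ecel1, an endopeptidase needed for motor axon branching, had log2 fold changes of 8.05 in iHoxc9 and 8.65 in control.

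By the same rule, the largest falls were in Ccdc198, Stra8, Mme, Cdh1, Nkx2-9 and Ccnd1. Stra8, a retinoic acid response gene best known from germ cells, was at 145, 119.5 and 226 CPM in day 2 progenitors and at 0, 0.0294 and 0.159 CPM in iHoxc9. It fell in both neuron groups, by 11.33 (SE 0.39) in iHoxc9 and 9.07 (SE 0.33) in control on the log2 scale. Ccnd1, the G1 cyclin D1, was at 129, 119 and 145 CPM in day 2 progenitors, at 0.665, 1.32 and 1.07 CPM in iHoxc9 and at 16.4, 39.2 and 22.5 CPM in control. Its fall was larger in iHoxc9 (-6.98, SE 0.31) than in control (-2.33, SE 0.23), and iHoxc9 was also below iHoxc10, which had 13.7, 17.1 and 19.97 CPM, with a difference of -4.02 (SE 0.29). Of its exon bases, 23.4% overlap a gene on the other strand, whose reads cannot be told apart where the counting did not use strand. E-cadherin (Cdh1) was at 17.0, 25.6 and 80.6 CPM in day 2 progenitors, highest in the replicate that stood apart, and at 0.313, 0.383 and 0.199 CPM in iHoxc9.

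To find genes called in iHoxc9 and not in control, a gene had to be called against day 2 in iHoxc9, not called in control, and different between iHoxc9 and control, with an adjusted p below 0.01 and more than 1 on the log2 scale. The last step is the test of the difference between the changes, since day 2 cancels in it. iHoxc9 and control differ in Hoxc9 induction, Dox, line and run, which cannot be told apart in this difference. Over all genes, 803 (3.83%) were higher and 833 (3.98%) lower in iHoxc9 than in control by that test. Of the 547 genes called higher only in iHoxc9, 272 met it, and of the 652 called lower only in iHoxc9, 214 did. In the reverse direction, 112 genes were higher and 71 lower in control only. Without day 2 replicate 3, these counts were 300, 260, 131 and 73, and the 71 became 45 without control replicate 1 and 42 without control replicate 3. Many of the genes moved in control too, below the fold threshold. At an adjusted p under 0.01 alone, which 21.2% of all genes passed in each direction in control, 110 of the 272 were also higher in control, 7 were lower and 155 did not pass. Of the 214, 108 were also lower in control, 5 were higher and the other genes did not pass. The median log2 fold change of the 272 was 3.10 in iHoxc9 and 0.99 in control (3.05 and 0.95 with genes at 0 counts in a group set to their bound), and that of the 214 was -2.69 and -0.89 (-2.64 and -0.89), as the selection requires.

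**Figure D1:**
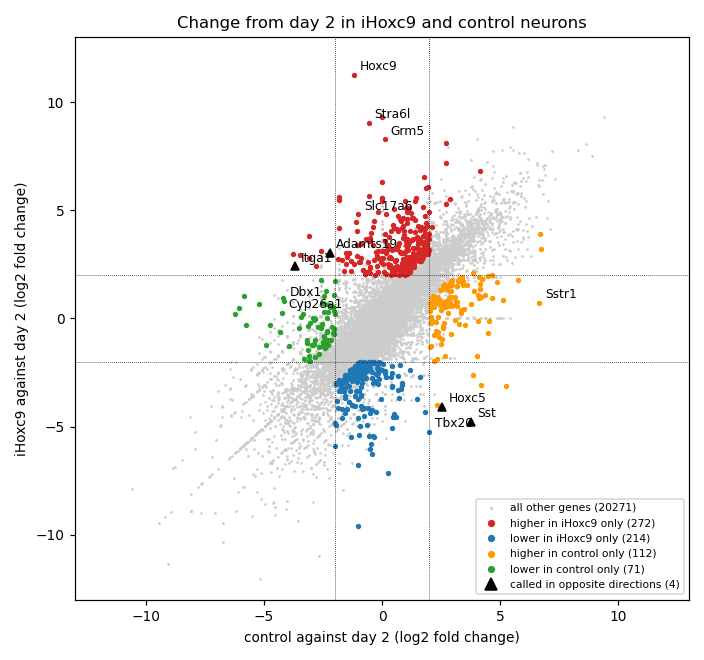
Log2 fold change against day 2 progenitors in control (x axis) and iHoxc9 neurons (y axis) for the 20944 genes tested. Colors mark the 272 and 214 genes higher or lower in iHoxc9 only, the 112 and 71 genes higher or lower in control only and the 4 genes called in opposite directions, dotted lines mark a log2 fold change of 2, and Hoxc9 lies highest at 11.26.

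Within their shared run, 365 genes (1.74%) were higher and 336 (1.60%) lower in iHoxc9 than in iHoxc10 by the same rule, an adjusted p below 0.01 and more than 1 on the log2 scale. Of the 272 genes higher in iHoxc9 only, 108 (39.7%) were also higher than in iHoxc10 and 2 were lower. Of the 214 genes lower in iHoxc9 only, 33 (15.4%) were also lower than in iHoxc10 and 1 was higher. Both sets were chosen with the same iHoxc9 libraries, so part of any excess over the shares of all genes may follow from the choice. With the replicate block, since same-numbered libraries of these groups paired, the counts in a fit of these groups alone were 122 and 50. The typical gene among the 272, taken as the median CPM of the list in a library, was at 0.472, 0.533 and 0.469 CPM in day 2 progenitors, 1.22, 0.847 and 0.898 CPM in control, 5.36, 5.18 and 4.92 CPM in iHoxc9 and 2.61, 2.79 and 2.11 CPM in iHoxc10. The same median of the 214 was 7.82, 8.74 and 8.00 CPM in day 2 progenitors, 4.34, 3.68 and 4.81 CPM in control, 1.15, 1.16 and 1.09 CPM in iHoxc9 and 1.61, 1.77 and 1.78 CPM in iHoxc10. For the 214 genes the iHoxc10 libraries thus lay close to iHoxc9.

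Of the 272 genes higher in iHoxc9 only, those with the largest difference from control included Stra6l, Grm5, Slc17a6, Shox2, Ldb2, Tmem163 and Calcrl. Stra6l, a relative of the retinol transporter Stra6, was at 62.7, 60.8 and 56.0 CPM in iHoxc9, at 0.101, 0.0998 and 0.1249 CPM in day 2 progenitors and at 0.0321, 0 and 0.187 CPM in control. iHoxc10 libraries lay between, at 24.4, 25.0 and 24.1 CPM. Stra6l was thus near the counting limit in every day 2 and control library, and iHoxc9 exceeded control by 9.62 (SE 0.37) and iHoxc10 by 1.29 (SE 0.21, adjusted p = 0.000199).

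Genes of glutamate signaling were among them. Slc17a6, the vesicular glutamate transporter VGLUT2 that marks excitatory neurons, was at 10.6, 14.9 and 10.1 CPM in iHoxc9, against 0.337, 0.632 and 0.281 CPM in day 2 progenitors, 0.225, 0.308 and 0.0749 CPM in control and 0.595, 0.681 and 0.405 CPM in iHoxc10. It rose by 4.82 (SE 0.33) from day 2, and exceeded control by 5.84 (SE 0.36) and iHoxc10 by 4.38 (SE 0.32). Every iHoxc9 library was above every other library in these groups, which the rule for naming the gene requires for day 2 and control. Grm5, a metabotropic glutamate receptor, was at 9.86, 6.50 and 7.88 CPM in iHoxc9, while day 2 progenitors had 2 counts in all, a ratio of 364 with a 95% counting interval of 100.6 to 3002. In iHoxc10, Grm5 stayed at or below 0.143 CPM.

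Shox2, a homeobox gene of excitatory spinal interneurons, was at 5.98, 5.59 and 4.78 CPM in iHoxc9 and at 0.233 CPM or less in day 2, control and iHoxc10 libraries. Its log2 fold change against day 2 was 4.93 (SE 0.41), and iHoxc9 exceeded iHoxc10 by 5.57 (SE 0.45). Ldb2, a cofactor of LIM-homeodomain proteins, rose by 4.51 (SE 0.25) and exceeded control by 4.85 (SE 0.26). Tmem163, a zinc transporter, was at 51.6, 58.1 and 49.1 CPM in iHoxc9, whereas day 2, control and iHoxc10 libraries had 4.23 CPM at most. Calcrl, the calcitonin receptor-like receptor, rose by 3.05 (SE 0.29) in iHoxc9 and was lower in control than on day 2 at an adjusted p of 0.000708 (-1.51, SE 0.34).

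**Figure D2:**
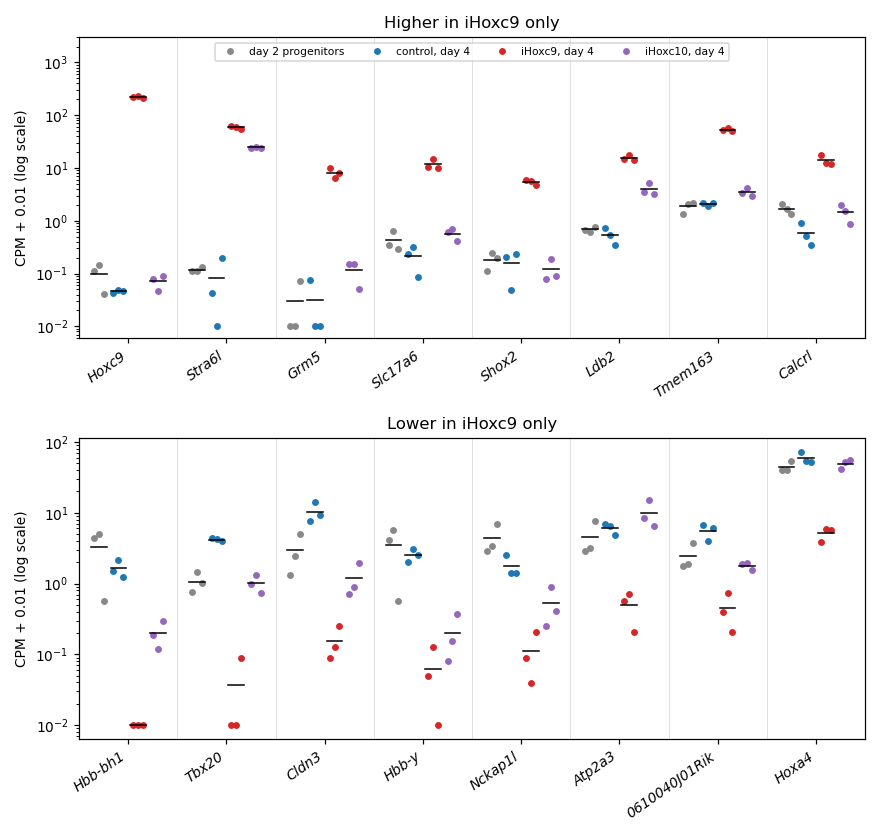
Levels of the 8 genes with the largest difference from control among those higher (top) and lower (bottom) in iHoxc9 only, as CPM + 0.01 on a log scale, with a point for each of 3 libraries and a line for the mean of each group. In the top panel the 3 iHoxc9 libraries lie above all day 2 and control libraries, and in the bottom panel they lie below them. The rule for naming these genes requires both.

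Genes lower in iHoxc9 only included Hoxa4, Tbx20, Cldn3, Nckap1l, Atp2a3, 0610040J01Rik and the embryonic globins Hbb-bh1 and Hbb-y. Tbx20, a T-box factor of visceral motor neurons, was at 0.741, 1.43 and 1.00 CPM in day 2 progenitors, 4.34, 4.20 and 3.97 CPM in control and 0, 0 and 0.0796 CPM in iHoxc9. The 2 counts in iHoxc9 give a ratio to day 2 of 44.8 (95% counting interval 12.4 to 370). Hbb-bh1, a globin of primitive red blood cells, was at 4.45, 4.96 and 0.562 CPM in day 2 progenitors and had no count in any iHoxc9 library, which makes it at least 30.7-fold lower. Cldn3, a tight junction claudin of epithelia, had a log2 fold change of -4.34 (SE 0.54) in iHoxc9 and 1.80 (SE 0.35) in control. Atp2a3, a calcium pump of the endoplasmic reticulum, fell from day 2 by 3.19 on the log2 scale (SE 0.43) and was lower than iHoxc10 by a log2 difference of -4.32 (SE 0.43).

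The 214 genes differed in kind from all genes tested. Of them, 26 (12.1%) were annotated as pseudogenes, against 605 of all genes (2.89%) and 1 of the 272 (0.368%), and 8 encoded cytosolic ribosomal proteins. Ribosomal protein genes, which were looked at after these 8 were seen, took 11.5%, 11.6% and 8.85% of all counts in day 2 progenitors, 7.86%, 6.01% and 10.7% in control, 4.16%, 4.58% and 4.64% in iHoxc9 and 3.53%, 3.78% and 4.24% in iHoxc10. Of 85 such genes, 10 were called lower in iHoxc9, against 7.59% of all genes, and 1 in control, against 5.82%. At an adjusted p under 0.01 alone, 82 were lower in iHoxc9, where 23.3% of all genes passed. The medians were -1.20 in iHoxc9 and -0.37 in control, and the median between iHoxc9 and iHoxc10 was 0.16. None of the 8 was lower in iHoxc9 than in iHoxc10 by the edgeR test at a log2 fold change above 1. The iHoxc9 and iHoxc10 libraries share Dox and the induction of a Hox gene as well as the run, which cannot be told apart for this share. The part of the share in the 214 genes was not tested.

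**Figure D3:**
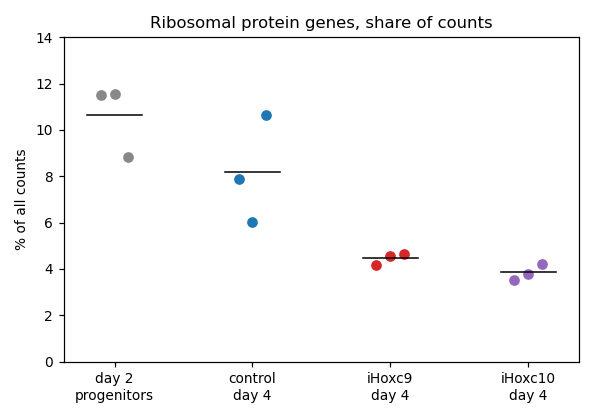
Share of all counts in cytosolic ribosomal protein genes, in % (y axis), with a point for each of 3 libraries and a line for the mean of each group. The iHoxc9 libraries, at 4.16% to 4.64%, lie beside the iHoxc10 libraries of the same run and below the day 2 and control libraries.

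Genes called in control only were read in the same way. Of the 112 higher in control only, 40 were also higher in iHoxc9 at an adjusted p under 0.01 alone and 3 were lower, and of the 71 lower in control only, 23 were also lower in iHoxc9 and 5 were higher. Cyp26a1, an enzyme that breaks down retinoic acid, was at 101.1, 100.5 and 129 CPM in day 2 progenitors and at 111, 148 and 134 CPM in iHoxc9, but at 7.42, 4.16 and 6.03 CPM in control. It fell in control (-4.22, SE 0.23) and did not pass the test in iHoxc9 (0.25, SE 0.20, adjusted p = 0.301), with a difference of 4.48 (SE 0.23) from control and of 2.11 (SE 0.21) from iHoxc10. Dbx1, a homeobox gene of ventral interneuron progenitors, was at 16.3, 14.2 and 17.4 CPM in iHoxc9, 7.21, 5.33 and 14.4 CPM in day 2 progenitors and 0.482, 0.501 and 0.524 CPM in control. It fell in control (-4.15, SE 0.34), while iHoxc9 and day 2 differed by 0.83 (SE 0.26, adjusted p = 0.00964), below the fold threshold. Fgf10 and Sema3c, a growth factor and a secreted guidance cue, also fell in control and had log2 fold changes of 1.73 and 1.10 in iHoxc9. Among genes higher in control only, Sstr1, a somatostatin receptor, was at 8.19, 4.24 and 4.98 CPM in control, against 0, 0.177 and 0.0796 CPM in iHoxc9 and 0.101, 0 and 0.0625 CPM in day 2 progenitors. Bhlhe23, a basic helix-loop-helix factor, rose in control (2.67, SE 0.29), and was lower in iHoxc9 than on day 2 at an adjusted p of 0.000103 (-1.73, SE 0.33). Spp2 and Nxnl2 were the other members with the largest difference.

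Only 4 genes were called in opposite directions. Sst, the peptide somatostatin, was at 13.3, 18.8 and 10.96 CPM in day 2 progenitors, 0.391, 0.441 and 0.756 CPM in iHoxc9 and 166, 199 and 219.7 CPM in control. Its log2 fold changes were -4.77 (SE 0.26) in iHoxc9 and 3.76 (SE 0.20) in control, and iHoxc10, with 2.66, 2.19 and 2.59 CPM, was also low. Hoxc5 was at 28.9, 30.2 and 41.1 CPM in day 2 progenitors, 1.99, 2.38 and 1.51 CPM in iHoxc9 and 204, 192 and 191 CPM in control, with changes of -4.07 (SE 0.18) and 2.55 (SE 0.16). The groups did not overlap for either gene, and 5.37% of the exon bases of Hoxc5 are shared with Hoxc10 on the same strand. Itga1, an integrin subunit that binds collagen, rose in iHoxc9 to 3.48, 2.47 and 2.43 CPM (2.41, SE 0.43) and fell in control (-3.71, SE 0.76), where it had 3 counts in all, a ratio of day 2 to control of 14.6 with a 95% counting interval of 5.00 to 70.9. Adamts19, a secreted metalloprotease, rose by 3.05 (SE 0.31) in iHoxc9 and fell in control (-2.20, SE 0.44).

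Counts of list members called against day 2 stand beside the shares over all genes. These were 8.00% higher and 7.59% lower in iHoxc9, and 6.74% and 5.82% in control. The wider Hox family was read in 2 lists. The first held the 15 genes of paralog groups 1 to 5, which act at hindbrain and cervical levels, and of these 5 were called lower in iHoxc9 and none higher, whereas control had 2 higher and 1 lower. The median was -1.34 in iHoxc9 and 0.46 in control, and 14 of the 15 were lower in iHoxc9 than in control at an adjusted p under 0.01, against 7.13% of all genes (6.95% were higher). Hoxa4 was at 40.6, 39.6 and 54.8 CPM in day 2 progenitors, 73.4, 54.0 and 51.4 CPM in control and 3.83, 5.83 and 5.69 CPM in iHoxc9, a fall of 3.13 on the log2 scale (SE 0.20). Hoxb4 went from 79.9, 97.8 and 75.7 CPM on day 2 to 12.2, 14.7 and 13.5 CPM in iHoxc9 (-2.65, SE 0.15). iHoxc10 libraries held Hoxa4 at 41.3, 51.7 and 55.4 CPM, so that iHoxc9 was the lowest of these groups (-3.27 against iHoxc10, SE 0.20). Hoxb1 fell in both neuron groups, and its 2 counts in iHoxc9 give a ratio of day 2 to iHoxc9 of 187 (95% counting interval 51.9 to 1547).

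Of the 24 Hox genes of groups 6 to 13, 17 had a count in any iHox library. The others were not tested, so a Hox gene lost in all iHox libraries could not be called lower. Against day 2, 4 of the 17 were higher in iHoxc9 and 6 in control, with none lower. Beside Hoxc9 these were Hoxa6, Hoxc6 and Hoxa7, at log2 fold changes of 3.16, 2.96 and 2.27, which also rose in control and did not pass the test against it (adjusted p of 0.551, 0.135 and 0.808). A gene on the other strand shares 20.4% of the exon bases of Hoxa7. The medians over the 17 were -0.18 in iHoxc9, or 0 with genes at 0 counts in a group set to their bound, and 0 in control. Hoxb6, Hoxb7 and Hoxb8 rose in control only. Hoxb8 was at 40.0, 51.4 and 34.6 CPM on day 2, 183, 188 and 161 CPM in control and 48.9, 67.7 and 63.4 CPM in iHoxc9, which leaves iHoxc9 near day 2 (0.52, SE 0.16) and below control (-1.56, SE 0.16).

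**Figure D4:**
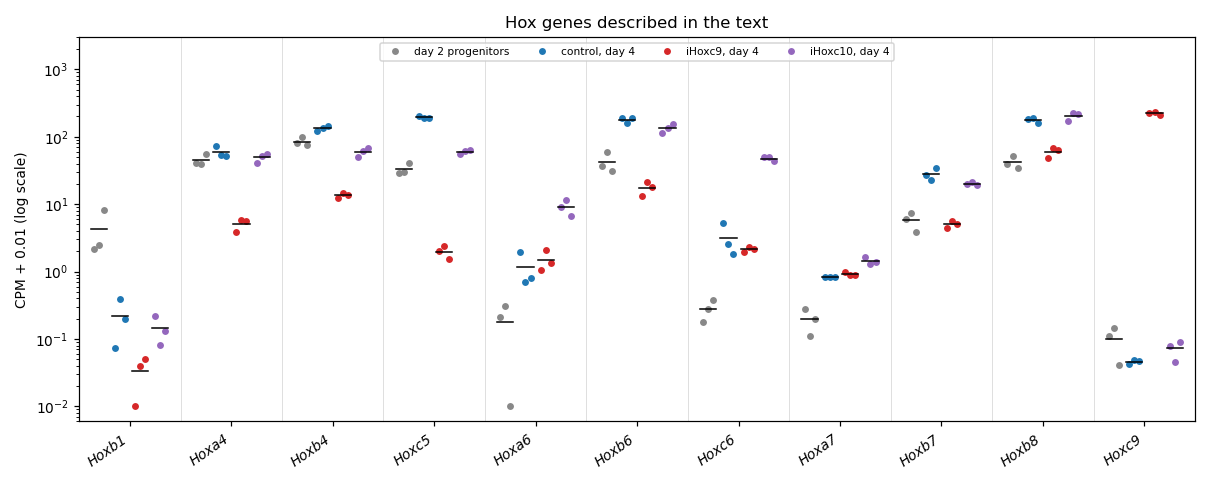
Levels of the 11 Hox genes described in the text, ordered by paralog group, as CPM + 0.01 on a log scale with a point for each of 3 libraries and a line for the mean. Hoxa4, Hoxb4 and Hoxc5 lie lower in iHoxc9 than in the other groups, and Hoxc9 is high in iHoxc9 alone.

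General neuronal genes rose whether or not Hoxc9 was induced. Of 27 pan-neuronal and cytoskeleton genes, 24 were called higher in iHoxc9 and 23 in control, with medians of 3.86 and 3.64. Tubb3, the neuronal tubulin, was at 194, 309.7 and 173 CPM in day 2 progenitors and at 2753, 2921 and 3584 CPM in iHoxc9 (3.78, SE 0.23), with no difference from control that passed the test (0.07, SE 0.20). Map2, a microtubule protein of dendrites, was at 995, 848 and 995 CPM in iHoxc9, above control at 284, 292 and 206 CPM (1.86, SE 0.19). Of 31 synaptic vesicle and release genes, 24 rose in iHoxc9 and 21 in control (medians 2.93 and 2.77). Rab3c, a vesicle GTPase, rose by 5.34 (SE 0.28) and exceeded control by 2.24 (SE 0.24), whereas the calcium sensor Syt4, which rose in control only, was at 9.54, 7.95 and 9.23 CPM in iHoxc9 and at 52.2, 33.5 and 32.2 CPM in control.

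Motor neuron genes followed both courses. Of 20 motor neuron identity and cholinergic genes, 17 were called higher in iHoxc9 and 16 in control, with medians of 3.81 and 4.14, and 2 were higher and 5 lower in iHoxc9 than in control at an adjusted p under 0.01, where all genes had 6.95% and 7.13%. Mnx1, the homeobox gene that defines motor neurons, was at 2.53, 5.26 and 4.53 CPM on day 2, 38.5, 35.8 and 40.2 CPM in iHoxc9 and 86.2, 72.7 and 91.1 CPM in control. It rose by 3.22 (SE 0.19) and stayed below control (-1.13, SE 0.17). Chat, the enzyme that makes acetylcholine, rose by 4.05 (SE 0.29) and was also below control (-1.51, SE 0.23), as was the intermediate filament gene Prph, at 11.8, 15.8 and 12.3 CPM in iHoxc9 against 163, 112 and 156 CPM in control. Ebf1, a helix-loop-helix factor of early neurons, was above control, at 101.2, 85.8 and 92.1 CPM against 22.0, 23.2 and 21.7 CPM. Isl2 was at 48.7, 42.1 and 48.4 CPM in iHoxc9 and at 6.09, 7.13 and 9.12 CPM in iHoxc10, a difference of 2.64 (SE 0.24).

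Of 20 motor column and pool genes, 5 were higher and 1 lower in iHoxc9, against 8 higher in control (medians 0.71 and 0.58). Aldh1a2, the enzyme that makes retinoic acid in limb-level motor neurons, rose to 19.4, 27.0 and 18.5 CPM in iHoxc9 and to 34.95, 27.5 and 24.7 CPM in control, while iHoxc10 had 203, 185 and 163 CPM. Lhx1, a LIM gene of lateral limb motor neurons and of interneurons, was at 2.39, 2.63 and 2.59 CPM on day 2, 3.76, 4.06 and 3.78 CPM in iHoxc9 and 15.2, 12.2 and 15.1 CPM in control, and only control passed the fold threshold. Foxp1, which sets limb and preganglionic motor columns, was higher than on day 2 at an adjusted p of 2.76e-07 but below that threshold (1.48, SE 0.18), at 111, 93.8 and 101.2 CPM in iHoxc9 and 274, 245 and 191 CPM in iHoxc10. Mecom, a zinc finger gene of medial motor neurons, was at 23.0, 17.95 and 22.7 CPM in iHoxc9 and at 5.397, 5.12 and 3.74 CPM in control, with a difference of 2.16 (SE 0.19).

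Interneuron factors moved in both directions. Of 29 spinal interneuron class factors, 8 were called higher and 6 lower in iHoxc9, against 6 and 1 in control, and the medians were 0 and -0.07, or 0 in both with genes at 0 counts at their bound. Sim1, a marker of V3 interneurons, was at 19.6, 16.4 and 15.2 CPM in iHoxc9, 0.0337, 0.133 and 0.0312 CPM on day 2, 0.739, 0.308 and 0.337 CPM in control and 4.87, 7.63 and 3.44 CPM in iHoxc10. It rose by 7.94 (SE 0.46) and was above control (5.16, SE 0.36) and iHoxc10 (1.68, SE 0.28). Tlx3, a selector of glutamatergic fate, and Uncx, a homeobox gene, rose in iHoxc9 only (4.65, SE 0.36 and 4.91, SE 0.38). On the other side, Gata2 and Tal1, which specify inhibitory V2b interneurons, fell in iHoxc9 only, Tal1 from 2.19, 2.60 and 0.437 CPM on day 2 to 0.0782, 0.0589 and 0.119 CPM (-4.31, SE 0.60). Tal1 is also a factor of primitive blood, and the globins Hbb-bh1 and Hbb-y were likewise lowest on day 2 in replicate 3, at 0.562 CPM each, and at 0.118 CPM or less in iHoxc9, and the part of blood cells in the Tal1 result was not tested. Gata3 fell by 2.13 on the log2 scale and had a difference from control that did not pass the test (-0.17, adjusted p = 0.909). Slc32a1, the transporter of inhibitory transmitters, had 0.117, 0.0883 and 0 CPM in iHoxc9 against 0.450, 0.693 and 0.823 CPM in control.

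The upstream sequences of genes higher in iHoxc9 only were searched for motifs of posterior Hox proteins. The letters were TTTATGG, which holds the TTAT core that these proteins prefer, and TGATTTAT, a motif of Hox proteins with PBX cofactors, on both strands of the 250 bases before each RefSeq start (GRCm38.p6). TTTATGG was found in 8 of 265 promoters of these genes (3.02%), in 3 of 162 promoters of genes lower in iHoxc9 only (1.85%) and in 329 of 18448 promoters of all genes tested (1.78%). TGATTTAT was found in 2 (0.755%), 2 (1.23%) and 95 (0.515%). Promoters were counted by start, so that the 265 belong to 198 genes and the 18448 to 14824. The 8 with TTTATGG thus include 2 overlapping windows of Daam2 that hold the same match. A match is a description of letters and not a binding site. The 3 promoters printed here show what such a match looks like in genes with at least 5 CPM in iHoxc9 libraries, and Limch1 and Daam2 were chosen after their values were seen. Capitals mark TTTATGG or its reverse complement CCATAAA, and sequences run 5′ to 3′ on the strand of the gene.
Uncx, chr5:139543648-139543897, plus strand: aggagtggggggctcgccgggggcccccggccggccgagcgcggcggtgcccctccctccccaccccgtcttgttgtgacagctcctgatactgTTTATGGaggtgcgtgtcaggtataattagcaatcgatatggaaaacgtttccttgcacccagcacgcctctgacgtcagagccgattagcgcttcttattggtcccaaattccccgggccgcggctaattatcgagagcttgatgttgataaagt
Limch1, chr5:66857219-66857468, plus strand: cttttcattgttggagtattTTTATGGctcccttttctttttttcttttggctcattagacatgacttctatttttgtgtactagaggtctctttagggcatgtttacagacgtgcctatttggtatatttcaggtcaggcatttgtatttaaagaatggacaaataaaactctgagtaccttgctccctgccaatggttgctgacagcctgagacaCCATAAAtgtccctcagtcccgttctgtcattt
Daam2, the first of 2 starts, chr17:49564311-49564560, minus strand: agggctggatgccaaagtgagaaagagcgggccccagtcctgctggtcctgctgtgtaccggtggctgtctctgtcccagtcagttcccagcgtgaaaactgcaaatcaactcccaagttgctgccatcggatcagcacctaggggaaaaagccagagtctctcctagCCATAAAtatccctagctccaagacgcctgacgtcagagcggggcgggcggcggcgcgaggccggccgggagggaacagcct

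Uncx was at 6.85, 8.27 and 5.81 CPM in iHoxc9, 0.101, 0.366 and 0.219 CPM on day 2, 0.353, 0.501 and 0.599 CPM in control and 1.75, 3.69 and 2.31 CPM in iHoxc10. Limch1, an actomyosin regulator, was at 85.2, 79.5 and 75.8 CPM in iHoxc9, 8.99, 8.69 and 12.0 CPM on day 2, 19.9, 15.7 and 16.1 CPM in control and 29.4, 28.9 and 27.7 CPM in iHoxc10. Daam2, a formin that assembles actin, was at 23.5, 24.5 and 22.3 CPM in iHoxc9, 2.09, 2.43 and 4.87 CPM on day 2, 3.18, 2.81 and 2.06 CPM in control and 6.72, 7.42 and 4.54 CPM in iHoxc10. In each, all iHoxc9 libraries lay above those of the other groups, which the choice of the set favors for day 2 and control. Pdzrn4 and Itga8 also held TTTATGG, met the 5 CPM line and lay above the other groups, but are not printed. The remaining genes of the set with this match did not show this separation. Lrrtm4 overlapped iHoxc10, and Tnfsf13b was at 0.900, 0.912 and 0.876 CPM in iHoxc9 but at 1.61, 1.76 and 1.54 CPM in iHoxc10.

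Of 24 ventral spinal progenitor factors, 2 were called higher and 4 lower in iHoxc9, the same numbers as in control. All genes had 8.00% and 7.59% in iHoxc9 and 6.74% and 5.82% in control. The medians in iHoxc9 and control were -0.91 and -0.76, or -0.91 and -0.49 with genes at 0 at their bound. Pax6, a homeobox gene of dividing progenitors, fell from 122, 92.5 and 87.5 CPM to 12.9, 14.2 and 13.9 CPM (-2.88, SE 0.21). Nkx2-9, a Hedgehog-induced homeobox gene, was at 39.4, 44.6 and 47.1 CPM on day 2 and at 0.430, 0.383 and 0.159 CPM in iHoxc9. Nkx2-2, which marks p3 progenitors, rose in iHoxc9 only, to 29.4, 32.5 and 26.6 CPM from 3.77, 5.09 and 3.84 CPM (2.80, SE 0.23), with 9.67% of its exon bases shared with a gene on the other strand. Sox2, the general neural progenitor factor, was at 72.5, 68.1 and 77.8 CPM on day 2, 93.1, 90.1 and 72.2 CPM in iHoxc9 and 39.8, 45.1 and 34.3 CPM in control. Sox2 in iHoxc9 and day 2 overlapped (0.23, SE 0.14), and iHoxc9 was above control (1.10, SE 0.14).

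Of 29 tested proneural and Notch genes, 3 were called higher and 4 lower in iHoxc9, against 2 and 1 in control (medians 0.21 and -0.29, or 0.21 and -0.21 with genes at 0 at their bound). Neurog3, which shares 16.3% of its exon bases with a gene on the other strand, rose in both. Id1 and Id3, inhibitors of neuronal differentiation, fell in iHoxc9 only, and Neurog1 fell from 6.91, 9.02 and 9.21 CPM to 1.33, 1.21 and 1.91 CPM (-2.51, SE 0.28). Insm1, a zinc finger gene of neurons at the time of cell cycle exit, was at 13.1, 16.0 and 20.5 CPM on day 2, 56.8, 61.1 and 56.6 CPM in iHoxc9 and 9.83, 13.7 and 8.98 CPM in control. Its change of 1.81 (SE 0.17) was below the fold threshold, but it exceeded control by 2.43 (SE 0.17). All 40 cell cycle and replication genes were lower in iHoxc9 at an adjusted p under 0.01, as were 23.3% of all genes, and 12 were called at the fold threshold against 6 in control (medians -1.78 and -1.66). Of 24 pluripotency genes tested, 12 were called lower in each neuron group. The medians were -2.87 and -2.75, or -1.75 and -1.77 with genes at 0 counts in a group set to their bound.

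Of 21 retinoid genes, 3 were higher and 4 lower in iHoxc9 and 3 and 3 in control (medians -0.28 and -0.47, or -0.28 and -0.21 with genes at 0 at their bound). Crabp2, which carries retinoic acid to its receptor, fell from 1568, 1555 and 1004 CPM to 256, 247 and 299 CPM (-2.36, SE 0.20). Cyp26b1, a relative of Cyp26a1, went the other way to it, at 81.0, 92.4 and 120.0 CPM on day 2, 19.7, 29.3 and 33.9 CPM in iHoxc9 and 345, 173 and 179 CPM in control, with changes of -1.82 (SE 0.26) and 1.25 (SE 0.26) that were below the fold threshold and a difference of -3.07 (SE 0.27). Of 16 Hedgehog genes, 1 was higher and 4 lower in each neuron group (medians -0.68 and -1.04). Gli1, a direct target of the pathway, fell in both. Hhip, an inhibitor that Hedgehog induces, was at 22.5, 16.8 and 22.4 CPM on day 2, 20.6, 23.3 and 15.1 CPM in iHoxc9 and 2.89, 4.12 and 1.42 CPM in control. Shh itself rose in control only, at 31.4, 24.03 and 26.1 CPM against 3.87, 8.36 and 3.14 CPM in iHoxc9, with 15.7% of its exon bases shared with a gene on the other strand.

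Of 35 axon guidance genes, 13 were higher and 1 lower in iHoxc9 and 10 and 1 in control (medians 1.44 and 0.97). Against control at an adjusted p under 0.01, 16 were higher and 2 lower in iHoxc9, where all genes had 6.95% and 7.13%. Dcc, a netrin receptor, was at 165, 142 and 129.8 CPM in iHoxc9, 5.19, 6.99 and 3.25 CPM on day 2 and 34.1, 36.2 and 22.4 CPM in control (4.82, SE 0.31). Epha7, an ephrin receptor, rose in iHoxc9 only, to 39.7, 41.9 and 34.8 CPM (3.03, SE 0.18), and control stayed at 6.49, 4.89 and 4.38 CPM. Of 26 somatostatin and glutamate receptor genes, 13 rose in iHoxc9 and 10 in control (medians 2.14 and 1.52), and against control 6 were higher and 5 lower in iHoxc9 at an adjusted p under 0.01. Grm5, Grik4, Grik2 and Grin3a rose in iHoxc9 only, and Sstr1 and Grin2a in control only. Of 25 neuropeptide and granin genes tested, 12 were higher and 2 lower in iHoxc9, against 12 and 1 in control (medians 1.83 and 2.24, or 1.23 and 1.75 with genes at 0 counts at their bound). Adcyap1, the peptide PACAP, rose in iHoxc9 only, to 46.0, 37.9 and 45.3 CPM from 1.38, 2.20 and 0.344 CPM (5.05, SE 0.37), and was at 6.65, 8.03 and 5.02 CPM in iHoxc10.

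Markers of other cell types were read in the same way. Of 21 sensory and neural crest markers, 5 were higher and 3 lower in iHoxc9 and 6 and 3 in control (medians 0.77 and 0.39). Their summed level was 82.3 to 110.8 CPM on day 2, 525 to 561 CPM in control and 542 to 564 CPM in iHoxc9. Pou4f3, a homeobox gene of sensory and hair cells, had no count in day 2 or control libraries and 2.78, 2.80 and 2.67 CPM in iHoxc9, which makes it at least 28.0-fold higher than day 2. Ntrk2, the BDNF receptor that motor neurons also express, rose to 79.9, 91.5 and 66.7 CPM from 1.62, 1.80 and 3.37 CPM (5.12, SE 0.24). Of 16 glial markers, 5 were higher and 2 lower in iHoxc9 and 4 and 2 in control (medians 0.97 and 0.68, or 0.40 and 0.31 with genes at 0 at their bound), and Gfap was at 0 in every iHoxc9 library. Of 26 mesoderm and endoderm markers tested, 2 were higher and 8 lower in iHoxc9 and 2 and 7 in control (medians -1.34 and -1.32, or -1.02 and -1.32 with genes at 0 at their bound), with a summed level of 70.6 to 98.7 CPM on day 2, 123 to 129.9 CPM in control and 39.5 to 48.3 CPM in iHoxc9. Such a sum follows its highest members and is no measure of mesoderm or endoderm cells. In iHoxc6 neurons, which lie outside these groups, Cxcr4 had a mean of 77.6 CPM and Foxa1 of 14.8 CPM. These values do not show which members carry the sums above. Cldn3 was higher in control and lower in iHoxc9 than on day 2. Hbb-bh1 had no count in iHoxc9 and was not called in control, with means of 3.32 CPM on day 2 and 1.62 CPM in control. Day 2 replicate 3, at 0.562 CPM, lay below that control mean. The part of other cell types in those results was not tested.

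Of 9 Hox cofactor genes, Meis3 alone was called, higher in both neuron groups (2.62, SE 0.15 in iHoxc9), with list medians of 0.78 and 0.86. Of 10 trunk and axial timing genes tested, 1 was higher and 2 lower in iHoxc9 and 1 and 1 in control (medians -0.998 and -0.978, or -0.13 and -0.17 with genes at 0 at their bound). Of 11 cell cycle exit genes, none was called in iHoxc9 and 1 was higher in control (medians 0.48 and 0.20). Of 25 imprinted genes, 6 were higher and 3 lower in iHoxc9 and 8 and 4 in control (medians 0.48 and 0.18), with Plagl1, a zinc finger growth regulator, higher in iHoxc9 only at 277, 252 and 217 CPM. Of 15 housekeeping genes, none was called in iHoxc9 and Hprt, at whose locus the transgene sits, was lower in control (medians -0.36 and -0.40). At an adjusted p under 0.01 alone, 3 of these were higher and 5 lower in iHoxc9, where all genes had 23.4% and 23.3%.

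**Figure D5:**
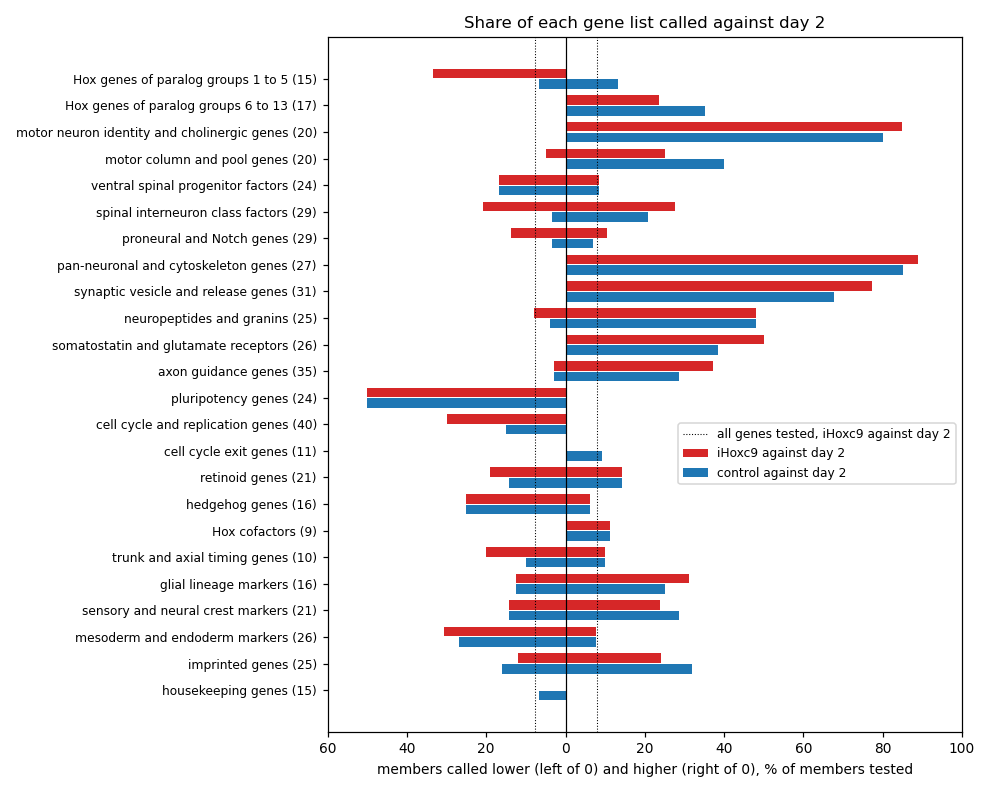
Share of each gene list called higher (right) or lower (left) against day 2 in iHoxc9 (red) and control (blue), in % of the members tested, whose number follows each name. Dotted lines give the shares over all genes tested in iHoxc9, 8.00% higher and 7.59% lower, and Hox genes of groups 1 to 5 extend left for iHoxc9 and mostly right for control.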

How the data were processed

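RNA-seq read counts were analysed for 18 libraries, 3 per group, of which day 2 progenitors and iHoxc9 are the subject and control and iHoxc10 are used beside them. Per the submitters' processing notes and the study's methods, the authors used STAR (2.7.0c) for alignment, assigned reads to RefSeq genes of mm10 with featureCounts, and deposited unnormalized counts per Entrez identifier. These notes also name Picard (2.8.2) and DESeq2 (1.20.0). Libraries were made with a stranded kit, but the strand setting of the counting is not given in the sources used here, so named genes with over 5% of their exon bases shared with another gene carry that share and are uncertain. Of 27179 genes, 25275 matched a RefSeq symbol. Groups, replicate numbers and runs came from the labels.

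The model was edgeR (4.0.16, in R 4.3.3): TMM normalization, then quasi-likelihood F-tests of contrasts between groups, with every one of the 18 libraries sharing the dispersion estimate. Genes lacking a read in all iHox libraries were dropped, which left 20944, and p-values were adjusted by Benjamini-Hochberg. The SE was taken from the F statistic. Fitted fold changes of genes with few counts depend on edgeR's prior count of 0.125. Folds against a group without counts were computed against 3 counts per library and are lower bounds, and those with 1 to 3 counts are ratios with exact Poisson intervals. Genes were named by a rule: Hoxc9 and Hprt, the 10 called genes with the largest change in each direction with at least 10 CPM and no overlap between groups, the 8 (or 4, for control only) with the largest difference between iHoxc9 and control in each set with at least 3 CPM and no overlap, members of the gene lists, and genes called in opposite directions. The genes to describe and the lists were chosen with earlier results of these data known. The code was tested on simulated counts of 20651 genes for iHoxc9 against day 2, called at a log2 fold change above 1 rather than 2. Of 200 altered genes (log2 fold 3, mean above 1 CPM), 99.5% were recovered with 3 other calls. All groups had the same simulated mean for every other gene, so the calls were not tested under the real shift from day 2. Between iHoxc9 and iHoxc10, deviations of same-numbered libraries correlated at 0.58, 0.47 and 0.65, so these libraries were taken as paired, although the labels do not say what a number shares. Against day 2 (0.39, -0.14 and 0.21) and control (0.28, -0.14 and 0.01) they were not. Alternatives were DESeq2's Wald test (1.42.0), DESeq2's size factors, a filter of at least 10 counts in at least 3 libraries, no filter, a log2 fold change above 1, only the groups compared, the replicate block and each day 2, control, iHoxc9 or, for counts against it, iHoxc10 library left out. Some members of the gene lists are counted in the list totals but are not reported here by name.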

Additional observations from a re-analysis of the deposited data

Results flagged for a closer look

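The difference between the change from day 2 in iHoxc9 and that in control was tested for each gene and passed for 272 genes higher and 214 genes lower in iHoxc9 only, and for 112 higher and 71 lower in control only, while 4 genes were called in opposite directions. The log2 difference of iHoxc9 from control was 12.45 for Hoxc9, 9.62 for Stra6l, 8.17 for Grm5, 5.84 for Slc17a6, 5.10 for Shox2, 4.85 for Ldb2, 4.68 for Tmem163 and 4.56 for Calcrl. Among genes lower in iHoxc9 only it was -8.57 for Hbb-bh1, whose fitted value is no bound since it had no count in iHoxc9, -7.22 for Tbx20, -6.14 for Cldn3, -5.33 for Hbb-y, -4.16 for Nckap1l, -3.60 for Atp2a3, -3.59 for 0610040J01Rik and -3.54 for Hoxa4. It was -7.26 for Spp2, -5.90 for Sstr1, -4.65 for Nxnl2 and -4.39 for Bhlhe23, which were higher in control only, and 4.98 for Dbx1, 4.48 for Cyp26a1, 3.74 for Fgf10 and 3.14 for Sema3c, which were lower in control only. For the genes called in opposite directions it was 6.12 for Itga1, 5.25 for Adamts19, -6.62 for Hoxc5 and -8.53 for Sst.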

How the results depend on the processing

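No result reversed. With a log2 fold change above 1, iHoxc9 had 3366 genes higher and 3428 lower than day 2, of which 1675 and 1589 were the genes called at 2, as the lower threshold requires. The genes lower in iHoxc9 only then numbered 347 and those lower in control only 123, of which 131 and 48 were in the original sets, since a gene then had to stay below the lower threshold in the other comparison. In the fit of iHoxc9 and iHoxc10 alone with the replicate block, which was added after the data were seen, 122 and 50 genes differed, against 108 and 33. The other replicate block fit, of all 18 libraries, gave 1639 and 1517 genes against day 2, 264 and 206 in iHoxc9 only, 115 and 68 in control only and 102 and 32 against iHoxc10, and changed none of these counts by over 1.5 times. With each day 2, control and iHoxc9 library left out in turn, and for the counts against iHoxc10 also each iHoxc10 library (added after the data were seen), the counts ranged from 1540 to 1699 and 1466 to 1654 against day 2, from 213 to 300 and 150 to 260 in iHoxc9 only, from 94 to 141 and 42 to 92 in control only, and from 78 to 115 and 25 to 40 against iHoxc10. The 71 genes lower in control only became 45 without control replicate 1 and 42 without control replicate 3, and why was not tested. Of 429 results for named genes (417 with the stricter filter), 396 to 421 kept their direction and their side of the threshold under each alternative. The fewest did in fits of only the groups compared. At a log2 fold change above 1 all 429 did, as the lower threshold requires. Of 48 list counts, 45 to 48 stayed within 1.5 times, except that 30 did at a log2 fold change above 1. DESeq2's Wald test called 245 and 246 genes in iHoxc9 only, of which 242 and 210 were the same genes. Run, line and day cannot be separated against day 2 by any alternative, and levels below 0.0904 to 0.122 CPM rest on 3 counts or fewer.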
